A study of Mus musculus with 2 samples.

Results

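The regulatory T cell genome was examined at 6 genes that control how lymphocytes enter, position themselves in and leave lymph nodes: S1pr1, S1pr4, Ccr7, Gpr183, P2ry10 and Cd69. They are 6 of the 21938 protein-coding genes of the GENCODE M21 annotation of the mouse build mm10, and were chosen by name. A region belonged to a gene when it lay in the gene body, or when the gene's transcription start site (TSS) was the nearest protein-coding TSS within 100 kb of its strongest summit. By this rule the 6 genes held 38 of the 26090 accessible regions in the list that passed the irreproducible discovery rate (IDR) threshold. The cells were activated regulatory T cells, taken as primary cells from male mice aged 4 months of the strain Foxp3CreERT2 x Rosa26YFP, and the labels trace their origin to a bone marrow hematopoietic cell. In this strain Cre recombinase fused to a modified estrogen receptor is expressed from the Foxp3 locus, and YFP from Rosa26 marks cells in which Cre has acted; the labels give no inducing agent and no means of activation. Accessibility was measured by ATAC-seq, in which a transposase inserts adapters into open chromatin, in 2 libraries that are technical replicates 1 and 2 of biological replicate 1. There was 1 group and no control, both libraries entered the same peak lists, and the read depth is unknown, so no value carries a standard deviation and no comparison between samples was possible. In a bulk population, fewer cells with an open site and less opening per cell cannot be told apart.

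Lymphocytes enter lymph nodes from the blood when the chemokine receptor CCR7 meets its ligands CCL19 and CCL21. They leave along a gradient of sphingosine 1-phosphate (S1P), which is low inside the tissue and high in lymph and is sensed by the receptor S1PR1. CD69, which appears early after activation, binds S1PR1 and removes it from the cell surface, so that activated cells stay in the node. GPR183, a receptor for oxysterols, places cells at the borders of follicles and the T cell zone, S1PR4 is a further S1P receptor of lymphocytes, and P2RY10 is a receptor for lysophospholipids. In T cells the transcription factor KLF2 is a known activator of S1pr1, and FOXO1 a known activator of Klf2 and Ccr7.

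Among the cell type markers listed, T cell genes had promoter regions in 6 of 7 cases, all but Cd4. Regulatory T cell genes had them in 5 of 6, Foxp3 among them and Tnfrsf18 the exception. The share over all protein-coding genes was 49.1%. The B cell list had promoter regions at 2 of 6 genes (Pax5 and Ebf1), the myeloid list at 1 of 6 (Spi1), the NK cell list at 0 of 5 and the CD8 list at 1 of 2 (Cd8b1). Ms4a1, Lyz2, Csf1r, Cd68, Ncr1, Klrk1, Klra8 and Cd8a held no region at all. Klrb1c, an NK cell receptor gene, held 8 distal regions.

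The sequences that carry the main pattern are 9 stretches around a FOXO consensus, GTAAACA, which lay within 100 bp of the strongest summit in 9 of the 38 regions. Such a match was present in 3.09% of all 26090 regions. Each stretch has the consensus in capitals with 30 bases on either side, is read 5′ to 3′ on the strand that shows GTAAACA, and was copied from the GRCm38.p6 assembly (mm10) as held by RefSeq. The first 7 belong to S1pr1 and are ordered from the most downstream to the most upstream.
S1pr1, 72.2 kb downstream, chr3:115642799-115642865, minus strand: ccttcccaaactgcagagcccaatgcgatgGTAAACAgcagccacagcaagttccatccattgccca
S1pr1, 41.1 kb downstream, chr3:115673897-115673963, plus strand: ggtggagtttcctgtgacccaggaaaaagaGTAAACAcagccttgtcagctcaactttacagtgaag
S1pr1, 32.2 kb downstream, chr3:115682872-115682938, plus strand: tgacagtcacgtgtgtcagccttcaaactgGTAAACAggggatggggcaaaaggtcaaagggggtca
S1pr1, 14.3 kb upstream, chr3:115729278-115729344, minus strand: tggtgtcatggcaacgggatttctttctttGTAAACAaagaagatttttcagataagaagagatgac
S1pr1, 39.6 kb upstream, chr3:115754615-115754681, minus strand: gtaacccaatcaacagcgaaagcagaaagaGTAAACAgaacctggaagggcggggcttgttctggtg
S1pr1, 43.5 kb upstream, chr3:115758614-115758680, minus strand: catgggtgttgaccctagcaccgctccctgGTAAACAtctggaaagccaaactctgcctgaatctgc
S1pr1, 86.0 kb upstream, chr3:115801121-115801187, plus strand: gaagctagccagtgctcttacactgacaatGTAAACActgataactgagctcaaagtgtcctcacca
Ccr7, 24.2 kb downstream, chr11:99130880-99130946, plus strand: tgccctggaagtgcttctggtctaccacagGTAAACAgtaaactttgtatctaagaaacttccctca
Gpr183, 10.3 kb downstream, chr14:121954848-121954914, plus strand: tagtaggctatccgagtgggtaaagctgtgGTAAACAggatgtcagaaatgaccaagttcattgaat

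The promoters of S1pr1, Ccr7 and Cd69 are shown because each had a lower signal than the strongest distal region of its gene, as Gpr183 did too. Each sequence runs from 180 bases before the TSS to 20 bases from it, 5′ to 3′ on the gene's strand, which is the minus strand for all 3 genes. Capitals mark matches to any of the 10 consensus motifs searched.
S1pr1 promoter, chr3:115715053-115715252, minus strand: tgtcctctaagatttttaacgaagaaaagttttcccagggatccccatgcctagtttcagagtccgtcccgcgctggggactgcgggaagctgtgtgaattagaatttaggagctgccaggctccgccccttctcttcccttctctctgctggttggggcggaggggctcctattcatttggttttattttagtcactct
Ccr7 promoter, chr11:99155058-99155257, minus strand: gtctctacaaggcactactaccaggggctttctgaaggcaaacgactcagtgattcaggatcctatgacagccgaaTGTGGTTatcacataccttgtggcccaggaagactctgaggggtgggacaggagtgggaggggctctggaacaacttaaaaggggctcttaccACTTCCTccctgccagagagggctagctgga
Cd69 promoter, chr6:129275417-129275616, minus strand: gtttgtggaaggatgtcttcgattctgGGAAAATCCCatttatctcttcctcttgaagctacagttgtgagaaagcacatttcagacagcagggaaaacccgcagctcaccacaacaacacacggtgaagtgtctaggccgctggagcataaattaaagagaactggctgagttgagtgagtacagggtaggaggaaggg
The Ccr7 promoter holds a RUNX and an ETS match, the Cd69 promoter an NF-kB match, and the S1pr1 promoter none. A RUNX match is present in 3.31% of the promoter windows of all 21938 genes, an ETS match in 12.5% and an NF-kB match in 3.50%.

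All 6 genes had a promoter region, meaning a region with its summit or edge within 1000 bp of a TSS, compared with 49.1% of all protein-coding genes. All 6 had at least 1 assigned region, compared with 58.2% of genes. At least 4 regions were assigned to S1pr1, Cd69, Ccr7 and Gpr183, which is 4 of 6, compared with 8.47% of all genes. The 38 regions were spread unevenly, with 15 at S1pr1, 9 at Cd69, 7 at Ccr7, 4 at Gpr183, 2 at P2ry10 and 1 at S1pr4. The S1pr1 count rests on distant regions, as it fell to 9 with assignment within 50 kb and to 3 within 20 kb. As many regions as at S1pr1 were found at 50 genes in all (0.228%), as many as at Cd69 at 293 genes (1.34%) and as many as at Ccr7 at 553 genes (2.52%). The stretch in which a gene's TSS is the nearest one limits this count, and it was 186.4 kb for S1pr1, 114.5 kb for P2ry10, 73.1 kb for Cd69, 62.1 kb for Ccr7, 44.2 kb for Gpr183 and 5.9 kb for S1pr4. P2ry10 therefore had few regions over a long stretch, at 1.75 per 100 kb, and S1pr4 a single region over a very short one. The other 4 genes had between 8.05 (S1pr1) and 12.3 (Cd69) regions per 100 kb.

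**Figure D1:**
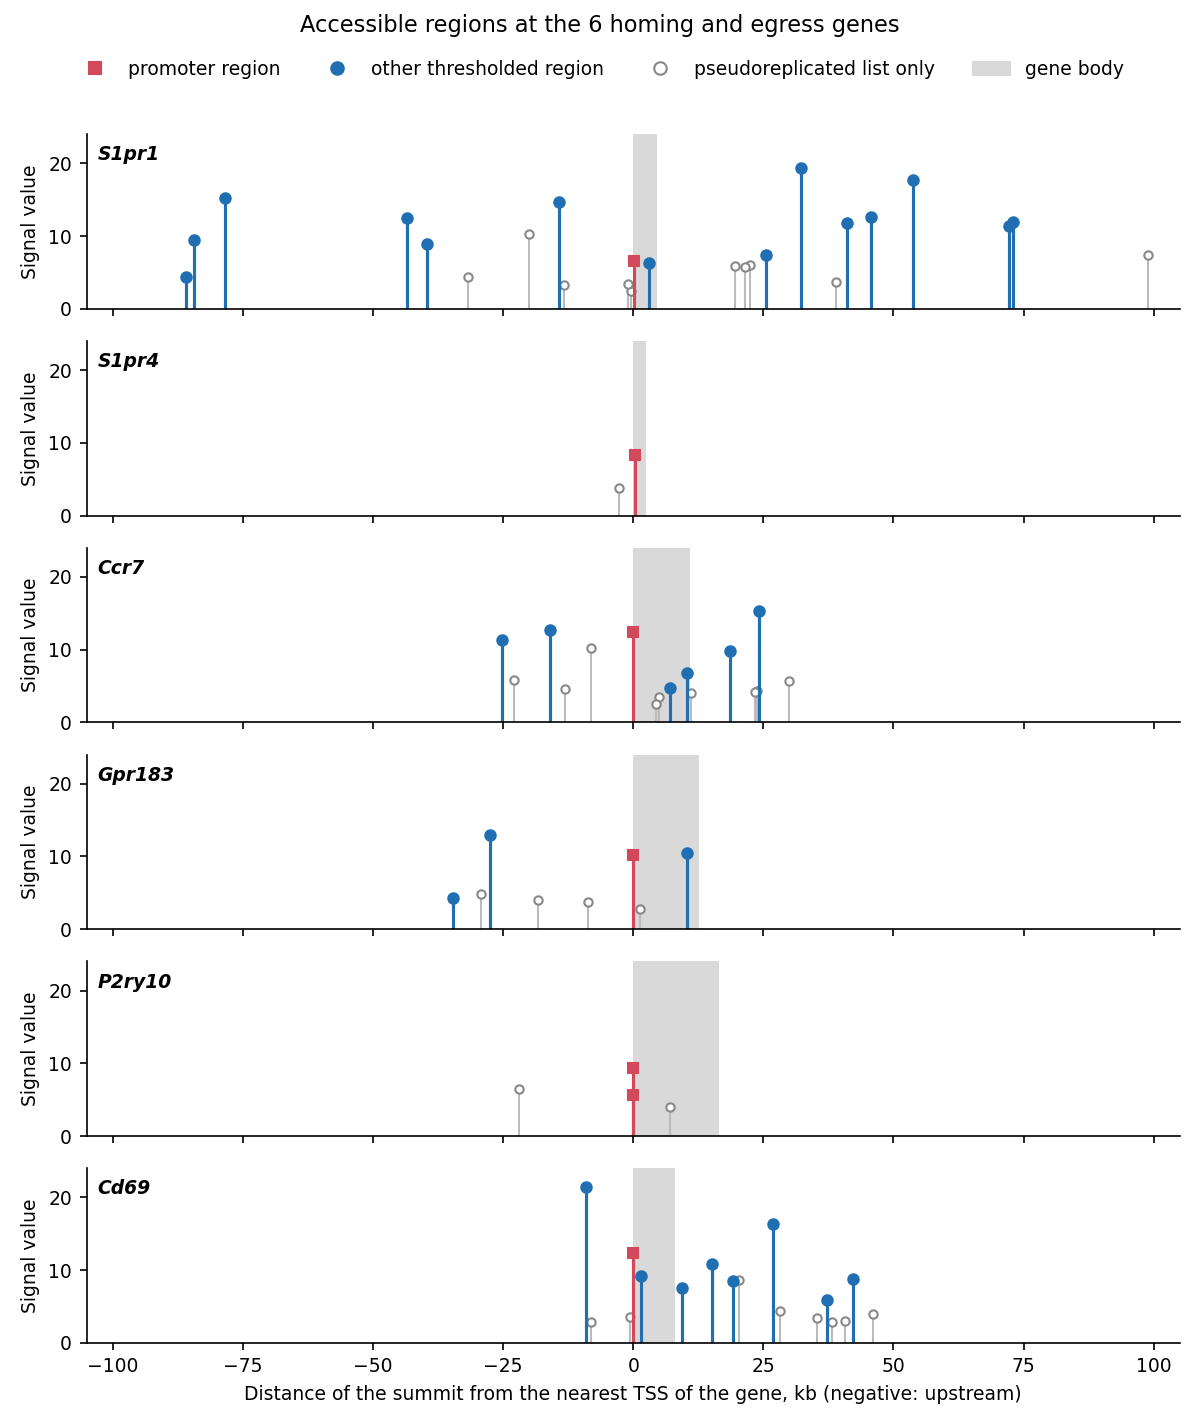
Signal value of each region (vertical axis) against the distance of its strongest summit from the nearest TSS of the gene in kb (horizontal axis, negative upstream), with 1 panel per gene. Red squares are promoter regions, blue circles the other regions of the thresholded list, open circles regions found only in the pseudoreplicated list, and grey bands the gene bodies. S1pr1 has 14 distal regions on both sides of a promoter of low signal, and the highest value, 21.4, lies upstream of Cd69.

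The accessible promoters of these genes had low signal values and were narrow. The signal value, the enrichment written for each peak by the authors' peak caller, was 12.5 at Ccr7, 12.4 at Cd69, 10.3 at Gpr183, 9.30 and 5.63 at the 2 promoter regions of P2ry10, 8.38 at S1pr4 and 6.58 at S1pr1. None of these 7 regions reached the median of all promoter regions, 15.2, or that of all regions, 13.6. By −log10 p, those of Cd69 (190, 82.6th percentile), Gpr183 (65.8th), S1pr4 (63.6th) and Ccr7 (62.5th) were above the median of all regions. Those of S1pr1 (44.3rd) and P2ry10 (38.3rd and 3.24th) were below the median of all regions by −log10 p too. Percentiles of −log10 p among promoter regions alone are not given. When each gene was represented by its strongest promoter region, the 6 genes lay between the 1.61st percentile (S1pr1) and the 23.7th (Ccr7) of the 10774 genes with such a region. Their widths ran from 295 bp (Gpr183) to 782 bp (P2ry10), beside a median of 875 bp over those genes. The 200-base promoter windows held between 1 and 7 CpG dinucleotides, compared with a median of 14 for genes with a promoter region. Among the 2530 genes with at most 7 CpG and a promoter region the 6 genes still lay between the 2.65th and 29.2nd percentile by signal, since the median signal of those genes was 15.8. The median width of their promoter regions was 787.5 bp, close to the 782 bp at P2ry10.

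**Figure D2:**
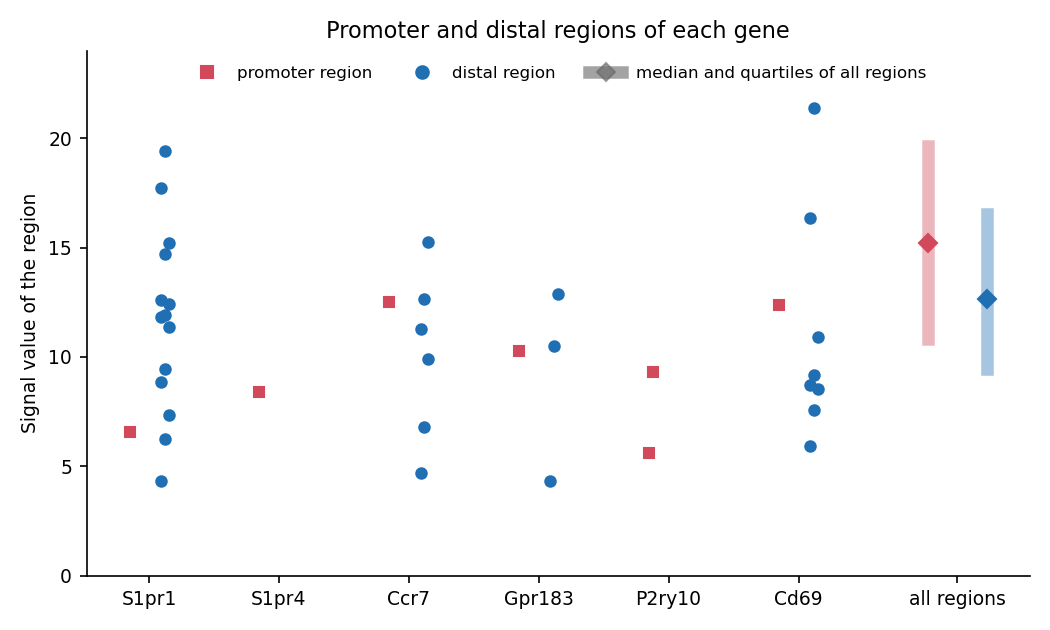
Signal value of every region of each gene, with promoter regions as red squares and distal regions as blue circles. On the right, diamonds and bars give the median and quartiles of all promoter regions (median 15.2) and all distal regions (median 12.7); every promoter square lies below the promoter median.

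S1pr1, the receptor that drives egress, lies on chr3:115710433-115715072, minus strand, and the nearest other protein-coding TSS, that of Dph5, is 172.8 kb away. Its promoter region, chr3:115714677-115715240, has its summit in the 5' UTR, 81 bp from the TSS, and its signal of 6.58 ranks 13th among the 15 regions of the gene. The strongest region, chr3:115682406-115683179, lies 32.2 kb downstream of the TSS, beyond the end of the gene, with signal 19.4 and −log10 p 254. It was thus 2.95 times as strong as the promoter. Its signal exceeded that of 81.4% of all regions and its −log10 p that of 90.2%.

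Downstream of the S1pr1 TSS there were 8 distal regions. One of them lay in the coding exon, 3.0 kb from the TSS, with a signal of 6.26. The others formed a series behind the gene, with signals of 7.36 at 25.5 kb, 19.4 at 32.2 kb, 11.8 at 41.1 kb, 12.6 at 45.6 kb, 17.7 at 53.8 kb, 11.3 at 72.2 kb and 11.9 at 72.9 kb. The regions at 41.1 and 45.6 kb had a −log10 p of 170 and 171, above 78.6% and 78.9% of all regions, although their signals were below the median of 13.6. The region at 53.8 kb was the only one of the 38 with a CTCF match; CTCF is an architectural factor of chromatin loops.

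Upstream of S1pr1 there were 6 regions in 3 clusters. A single region at 14.3 kb had a signal of 14.7, regions at 39.6 and 43.5 kb had 8.86 and 12.4, and those at 78.4, 84.4 and 86.0 kb had 15.2, 9.45 and 4.32. The region at 43.5 kb was the widest of the 38, at 1089 bp with 4 summits. All 6 were nearer, by 78 bp, to the TSS of the long noncoding RNA Gm9889, which starts beside the S1pr1 promoter, than to the TSS of S1pr1 itself.

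S1pr4, a lymphocyte S1P receptor, lies on chr10:81497747-81500132, minus strand, among closely spaced genes. The TSS of Ncln is 3.7 kb away, and 7 of the 8 protein-coding genes that start within 100 kb had a promoter region. The single S1pr4 region, chr10:81499570-81499881, was 312 bp wide with its summit in the 5' UTR, 419 bp from the TSS. Its signal was low, 8.38, yet its −log10 p was 110, above 63.6% of all regions. It was the only promoter region of the 6 genes with a KLF match, shown here in capitals with 30 bases in all on the gene's strand.
S1pr4 KLF match, chr10:81499737-81499766, minus strand: cctggcctcacCCCCACCCactctggggca

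Ccr7, the entry receptor, lies on chr11:99144196-99155077, minus strand, and held 7 regions. The promoter region, chr11:99154931-99155530, had a signal of 12.5 and reached a −log10 p of 106. The strongest region by signal, chr11:99130726-99131065, lay 24.2 kb downstream of the TSS with a signal of 15.3, 1.22 times the promoter's, and is the one with the FOXO match. Its −log10 p was 72.8, so by that measure the order was reversed, and the promoter's 106 was the highest of the 7 regions. Within the gene there were weak regions in an intron, 7.1 kb from the TSS (signal 4.71), and in the 3' UTR, 10.4 kb from it (signal 6.82). A region 18.5 kb downstream had a signal of 9.89. Upstream of the promoter, signals of 12.6 and 11.3 were found at 16018 and 25212 bp. The nearest other protein-coding TSS, that of Smarce1, lay 58.4 kb away.

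Gpr183, the oxysterol receptor, lies on chr14:121952551-121965195, minus strand, inside the gene Ubac2, which covers all 4 of its regions. The promoter region, chr14:121965003-121965297, was the narrowest of the 7, with signal 10.3 and −log10 p 117. The strongest region, chr14:121991962-121992994, lay 27.6 kb upstream with 3 summits and a signal of 12.9, 1.26 times the promoter's. A weaker region 34.5 kb upstream had 4.34. The fourth region, chr14:121954588-121955098, lay over the coding exon of Gpr183 with signal 10.5 and −log10 p 155; its nearest protein-coding TSS is that of Ubac2, 8507 bp away, and it holds the FOXO match. Ubac2 itself was assigned 18 regions, in part the same ones, so the regions here cannot be credited to 1 of the 2 genes by position.

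P2ry10, the lysophospholipid receptor, lies on chrX:107088492-107104974, plus strand, and had no distal region. Both of its regions were at a TSS. The stronger, chrX:107089007-107089788, had signal 9.30 and −log10 p 59.2, and the weaker, chrX:107088181-107088672, had 5.63 and 23.8. P2ry10b, the neighbouring related gene 59.6 kb away, had 2 distal regions and no promoter region.

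Cd69, which opposes S1PR1 at the cell surface, lies on chr6:129267325-129275436, minus strand, and held the most accessible region of the 6 genes. This region, chr6:129284359-129285166, lay 9.1 kb upstream of the TSS with signal 21.4 and −log10 p 434. Its signal exceeded that of 88.2% of all regions and its −log10 p that of 98.3%, and it had the lowest IDR of the 38, 0.000119. It was 1.73 times as strong as the Cd69 promoter region, chr6:129275093-129275608, at 12.4. The 201 bases around its summit, on the plus strand, hold an E-box, and then TCF/LEF, RUNX and ETS matches that lie within 1 short stretch, all in capitals.
Cd69, 9.1 kb upstream, chr6:129284475-129284675, plus strand: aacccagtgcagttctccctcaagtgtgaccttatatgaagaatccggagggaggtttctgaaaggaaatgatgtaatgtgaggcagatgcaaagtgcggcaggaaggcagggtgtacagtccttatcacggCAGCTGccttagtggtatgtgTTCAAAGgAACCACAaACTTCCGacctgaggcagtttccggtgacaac

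The other 7 Cd69 regions lay downstream of the TSS. Inside the gene, 1.5 kb from the TSS, the signal was 9.18 with a −log10 p of 119. Beyond it, signals were 7.57 at 9.3 kb, 10.9 at 15.1 kb, 8.52 at 19.1 kb, 16.3 at 26.9 kb, 5.91 at 37.3 kb and 8.71 at 42.3 kb. The region at 42.3 kb had a −log10 p of 130 in spite of its low signal. The regions at 37.3 and 42.3 kb lay over the long noncoding RNA gene 2310001H17Rik, with summits 71 and 927 bp from its TSS. Both count as distal here only because promoters were defined by protein-coding TSSs. All regions at 19.1 kb and beyond were nearer to the TSS of 2310001H17Rik than to that of Cd69.

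Over all 6 genes, 31 of the 38 regions were distal, 20 downstream of the TSS and 11 upstream. Of these 31, 8 had a signal above the median of all distal regions, 12.7: 4 at S1pr1, 2 at Cd69 and 1 each at Ccr7 and Gpr183. No region of the 6 genes was among the top 10% of all regions by signal. By −log10 p, 17 of 38 were above the median of all regions, 77.4, whereas by signal only 7 were above the median of 13.6. The −log10 p stood at a higher percentile than the signal in 23 of 38 regions, compared with 47.6% of all regions. More than 1 summit was present in 9 of the 31 distal regions, compared with 37.5% of all distal regions, and in 1 of the 7 promoter regions, compared with 72.9%.

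The ranked list also gives the −log10 p of each peak in the 2 inputs that the IDR procedure compared; the sources used here do not say whether these inputs are the libraries or splits of pooled reads. Both inputs were within 2-fold of each other at 49 of the 53 summits of the 6 genes (92.5%), compared with 85.0% of all thresholded peaks. At the site 9.1 kb upstream of Cd69 the −log10 p was 219 and 207 in the 2 inputs, at the strongest S1pr1 region 115 and 134, and at the Ccr7 promoter 59.3 and 49.5. Among strongest summits, the widest gap was at the Gpr183 region 27.6 kb upstream, with 83.7 and 44.4. The IDR of the 38 regions ran from 0.000119 to 0.0385, and 10 had an IDR above 0.01.

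**Figure D3:**
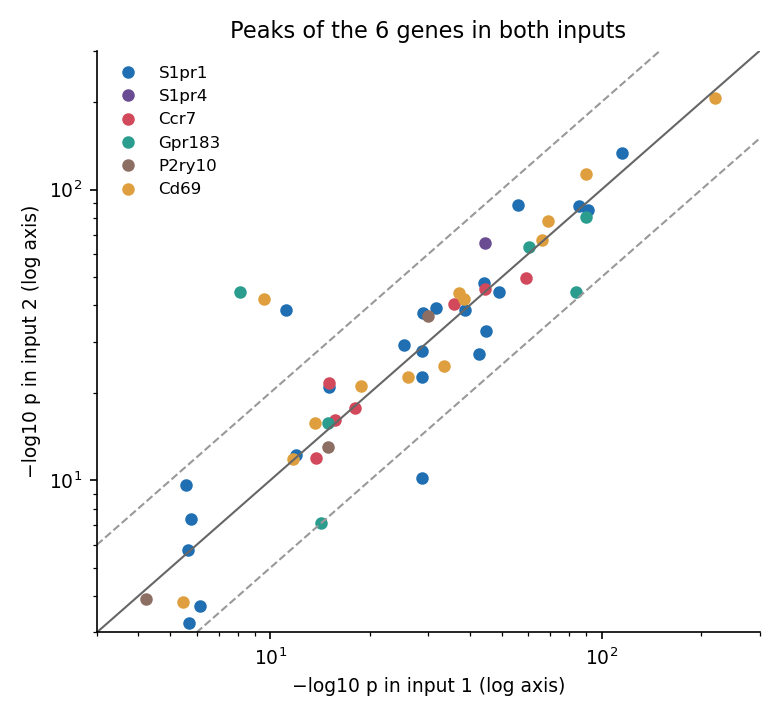
−log10 p of each of the 53 summits in the 2 inputs compared (both axes logarithmic), with genes by colour. The solid line marks equal values and the dashed lines a 2-fold difference; 49 summits lie within the dashed lines.

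The pseudoreplicated list held 72 regions of the 6 genes. These included all 38 thresholded ones and 34 others, so that 52.8% were also thresholded, compared with 52.0% over the genome. The 34 comprised 10 at S1pr1, 9 at Ccr7, 8 at Cd69, 4 at Gpr183, 2 at P2ry10 and 1 at S1pr4, with signals from 2.48 to 10.3 and a median of 4.08. Some had higher signals than thresholded regions of the same gene. The strongest were a region 19968 bp upstream of S1pr1 (signal 10.3, IDR 0.124) and one 8.1 kb upstream of Ccr7 (signal 10.2, IDR 0.0989, with a −log10 p of 14.4 and 31.5 in the 2 inputs). A Cd69 region 20.2 kb downstream missed the threshold of 0.05 narrowly, at an IDR of 0.0507, with signal 8.59.

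FOXO consensus matches were found in 9 of the 31 distal regions and in 0 of the 7 promoter regions. The share over all 38 was 23.7%, beside 3.09% of all regions and 3.88% of all distal regions. S1pr1 held 7 of the 9, in 7 of its 14 distal regions, and under this assignment no other protein-coding gene had as many regions with a match. Bach2, Gm20696 and Btg1, named after their values were seen, followed with 4 each, out of 30, 20 and 16 regions. This order depends on the assignment. Within 50 kb of a TSS S1pr1 kept 5 such regions, and with matches within 50 bp of the summit 4, while no other gene reached its count. With long noncoding RNA TSSs included it kept 3, a count that 7 other genes reached or passed, and within 20 kb 1. These comparisons were chosen after seeing the data. The 7 S1pr1 matches included the strongest region, 32.2 kb downstream, and lay between 0 bp and 91 bp from the summit; at 41.1 kb downstream the consensus was centred on the summit itself. Matches in the strongest Ccr7 region and the Gpr183 coding region lay 19 and 60 bp from their summits, and Cd69, S1pr4 and P2ry10 had none. Within 50 bp of the summit, 5 of the 38 regions held a match, compared with 1.51% of all regions. With a wider forkhead consensus chosen after seeing the data (NTAAANA, with A or G and then C or T at the N), 11 of 38 regions held a match, compared with 8.54% of all and 11.6% of distal regions. The wider consensus includes GTAAACA, so the 9 regions above are among these 11. It is therefore not a separate comparison. A match describes the letters and does not show that a factor was bound.

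The other motifs were searched on both strands in the same windows. Since 31 of the 38 regions were distal, the share among all distal regions is given after that among all regions. KLF (CCNCNCCC, with A or C and then A or G at the N) matched 4 of 38 regions, beside 24.5% of all and 14.2% of distal regions: 1 each at S1pr4 and Gpr183 and 2 at S1pr1. In the S1pr1 region 39.6 kb upstream, the KLF match lies in the stretch printed above, on the 3′ side of GTAAACA. RUNX (TGTGGTT) matched 8 regions, beside 9.49% and 13.9%, and NFAT (TGGAAA) 8, beside 13.3% and 16.5%. TCF/LEF (CTTTGAN, ending in A or T) matched 6, beside 7.39% and 10.3%, and AP-1 (TGANTCA, with C or G at the N) matched 5, beside 7.65% and 11.2%. ETS (NGGAAGT, starting with A or C) matched 5, beside 24.4% and 26.0%, and the E-box (CANNTG, with C or G at each N) 10, beside 30.3% and 32.1%. NF-kB matched 0, beside 5.86% and 6.94%, and CTCF 1, beside 4.28% and 6.49%. Most of these counts are small and changed with the window: within 50 bp of the summit RUNX matched 5 regions, E-box 5, and NFAT, TCF/LEF, AP-1, ETS and KLF 3 each, whereas NFAT matched 14 regions when every summit was searched. An NFAT match can share letters with an NF-kB match. The 38 windows had a median GC content of 49.0%, compared with 53.7% over all regions. This difference bears on GC-rich motifs such as KLF and equally on AT-rich ones such as the FOXO consensus GTAAACA. Its part in these shares, that of FOXO included, was not tested.

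**Figure D4:**
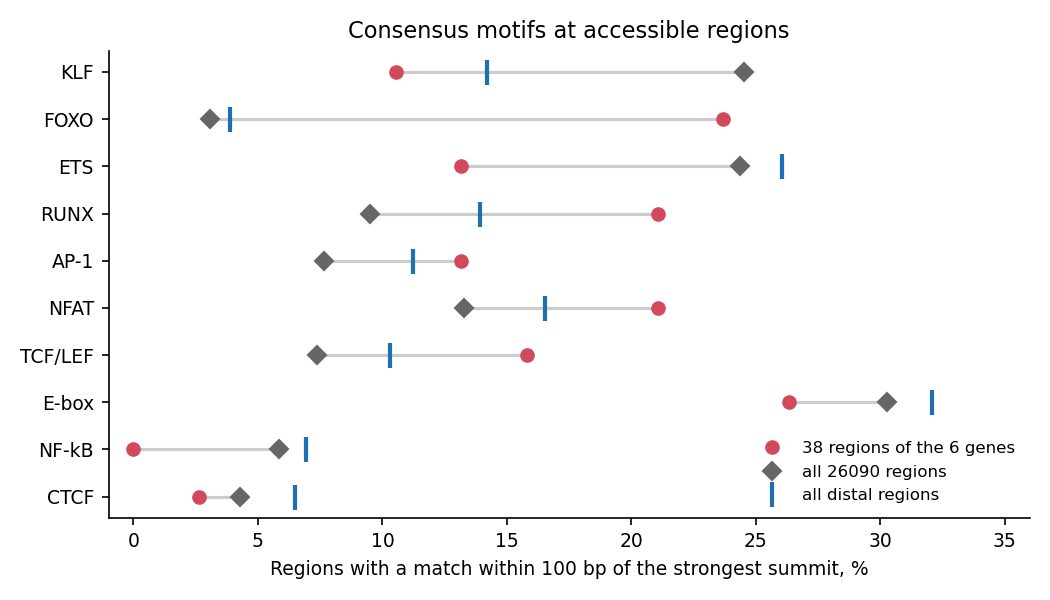
Share of regions with a match within 100 bp of the strongest summit (horizontal axis, percent) for the 10 motifs. Red circles are the 38 regions of the 6 genes, grey diamonds all 26090 regions and blue ticks all distal regions; FOXO stands at 23.7% beside 3.09%.

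Among 61 further genes of the same pathways, in 6 lists, 41 (67.2%) had a promoter region, beside 49.1% of all protein-coding genes. The genes of S1P sensing and metabolism had one at 6 of 11 (54.5%), close to that share, with none at the receptors S1pr3 and S1pr5, the kinase Sphk1, the S1P exporter Spns2 or the phosphatase Plpp3. Of the entry and positioning genes 5 of 12 (41.7%) had one, also near it. Those without included the chemokines Ccl19, Ccl21a, Cxcl12 and Cxcl13, the scavenger receptor Ackr4 and Glycam1, none of which had any region, whereas the chemokine receptors Cxcr5 and Cxcr4 had 10 and 7.

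Of the 4 oxysterol enzyme genes, which make or break down the ligands of GPR183, only Hsd3b7 had a promoter region, and Ch25h, Cyp7b1 and Cyp27a1 had no region. The receptors related to P2RY10 and GPR183 had one at 6 of 10, with none at P2ry10b, Gpr34, Gpr174 or P2ry13; Gpr174, a lysophosphatidylserine receptor, held 6 distal regions. All 18 genes of signal transduction and desensitization had one, led by Rgs1 with 12 regions and Rgs2 with 7, which encode proteins that shorten G protein signalling. Of the 6 transcription factor genes 5 had one. Lef1 held 13 regions, while Tcf7 had 8 distal regions and no thresholded promoter region. Klf2 held 3 regions, with a signal of 14.8 at the promoter and 20.6 at 24912 bp downstream.

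**Figure D5:**
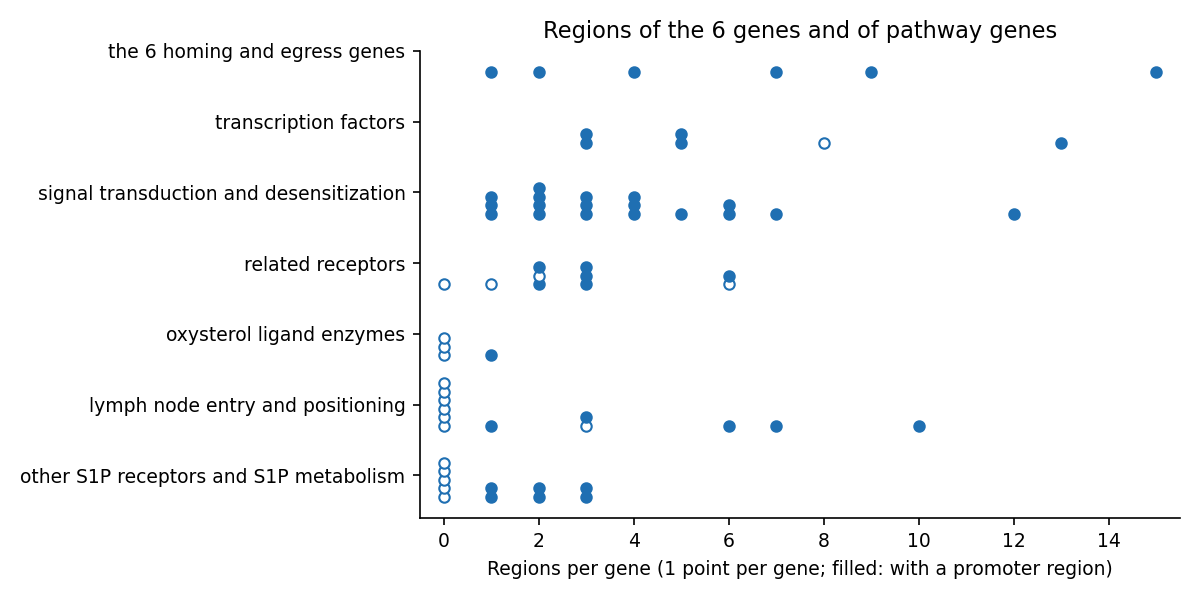
Number of assigned regions per gene (horizontal axis) for the 6 homing and egress genes and the 6 pathway lists, with 1 point per gene, filled where the gene had a promoter region. S1pr1, at 15, lies beyond every gene of the lists, of which Lef1 (13) and Rgs1 (12) come closest.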

How the data were processed

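ATAC-seq peaks of activated regulatory T cells were analysed from 3 lists of the whole series on mm10: pseudoreplicated, IDR ranked and IDR thresholded. Per the file headers of the accompanying README files, the same alignment underlies all 3, so values cannot be split by library, and depth and precision are unknown. The sources used here do not name the aligner, the peak caller, read filters or any shift of reads for the transposase. Each deposited signal value is the caller's enrichment per peak, with an unstated reference, and is the authors' own value. The deposited −log10 columns hold the p-value and q-value of each peak and, in the ranked list, the IDR and the ranking value in both inputs. The deposited score runs to 1000, and the deposited summit offset gave the summit.

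Overlapping peaks (1 bp or more) were merged, and each region took the values of its strongest summit by signal. Genes and TSSs came from GENCODE M21 on chromosomes 1 to 19, X and Y. Any region within 1000 bp of a TSS of a gene counted as its promoter region, and a region was distal when over 1000 bp from every protein-coding TSS. Motifs were sought on both strands within 100 bp of the strongest summit, and sequences came from the GRCm38.p6 assembly of RefSeq. All regions of the 6 genes were named, with neighbours that start within 100 kb, every pathway gene without a promoter region and those with the most regions; some of these are not reported here. The genes, lists and motifs were chosen with earlier results of these data known. No test was made, because there is 1 group and the lists are pooled; shares over all genes or regions are given in its place. Alternatives covered the other list, an IDR of 0.01 or below, unmerged peaks, assignment within 50 and 20 kb, to the gene body only or to the nearest TSS only, a promoter window of 500 or of 2500 bp, a single TSS per gene, an overlap of 50% and motif windows of 50 bp. The assignment and motif steps were tested on simulated data. Python 3.11.15, numpy 2.4.6, pandas 2.3.3, pysam 0.24.0 and scipy 1.17.1 were used.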

Additional observations from a re-analysis of the deposited data

How the results depend on the processing

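The count of regions at the 6 genes moved by over 1.5 times from 38 under 3 alternatives: it was 72 in the pseudoreplicated list, 19 with assignment within 20 kb of a TSS and 12 for the gene bodies alone. It was 28 at an IDR of 0.01 or below, 32 within 50 kb, 37 for the nearest TSS only, 53 for unmerged peaks and 28 when long noncoding RNA TSSs were included, an alternative chosen after seeing the data. Counts of single genes moved further: S1pr1 went from 15 to 9 within 50 kb, to 3 within 20 kb and to 9 with long noncoding RNA TSSs, and Cd69 from 9 to 5 with the latter. At an IDR of 0.01 or below Ccr7 went from 7 to 3 and P2ry10 from 2 to 1. S1pr1 thus equalled Cd69 within 50 kb, and had fewer regions than Cd69 (6) and Ccr7 (5) within 20 kb. All 6 genes had a promoter region under each of the 5 alternatives tried for it, with 45.2% to 55.7% of all genes as background. The 61 pathway genes had between 36 and 46 promoter regions, and all 38 regions were shared with the pseudoreplicated list under both stricter overlaps. At least 1 of the 10 motifs matched 28 of 38 regions, 24 within 50 bp and 30 over every summit. The share of all regions with at least 1 match is not given, so this count shows only how it changed with the processing. Several single motifs moved by over 1.5 times. Within 50 bp FOXO went from 9 to 5, NFAT from 8 to 3, RUNX from 8 to 5, E-box from 10 to 5, TCF/LEF from 6 to 3, and ETS and AP-1 from 5 to 3 each. Over every summit NFAT went to 14 and NF-kB from 0 to 1. Leaving out a library was not possible, because the lists pool both. No paired analysis was possible because there is 1 group. The read depth is unknown, and 10 of the 38 regions had an IDR above 0.01.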
